A study of Saccharomyces cerevisiae with 4 samples.

Results

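A set of 10 genes of yeast metal handling, out of the 6688 gene identifiers in the deposited tables, are described here across wild-type and nhp6ab cells. They were taken by systematic identifier: 5 genes for known or putative metal reductases (FRE1, FRE2, FRE3, FRE5 and FRE7), the copper transporter genes CTR1 and CTR3, and the metallothionein genes CUP1-1, CUP1-2 and CRS5. All 10 were found. CUP1-1 and CUP1-2 have the same coding sequence and were summed as CUP1, which leaves 9 units, and all 9 passed the filter on low counts.

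The samples were polyadenylated RNA of Saccharomyces cerevisiae in exponential growth in YPD, a rich glucose medium to which the labels name no added or withheld metal. The wild type (WT) was set against nhp6ab, the usual name of a strain without NHP6A and NHP6B, which encode small DNA-bending HMG-box proteins that work with the histone chaperone FACT. Each strain had 2 libraries. The labels give neither the strain background nor the deleted bases, and do not state from how many cultures or clones the replicates came, so the p-values cover the scatter of these 4 libraries alone, which could be technical. The libraries held 22622592 to 29115870 expected counts. NHP6A and NHP6B were lower in nhp6ab, at 9.19% and 39.8% of their wild-type level (log2 fold changes -3.44 ± 0.07 and -1.33 ± 0.06 SE, adjusted p = 1.04e-06 and 1.34e-05 in edgeR's quasi-likelihood test). Neither was absent: the nhp6ab libraries held 343 and 378 expected counts of NHP6A and 1029 and 1027 of NHP6B. Why these counts remain was not tested, and they do not settle which bases were deleted.

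Yeast takes up copper and iron in the reduced form. Reductases of the FRE family sit in membranes and pass electrons to copper(II), iron(III) or iron held by siderophores. Ctr1 and Ctr3 then carry copper(I) across the plasma membrane, and the cysteine-rich metallothioneins bind copper in the cytosol. As background, 3 sets of regulators are known. Mac1 activates FRE1, FRE7, CTR1 and CTR3 when copper is scarce, Aft1 and Aft2 activate FRE2, FRE3 and FRE5 among the iron genes when iron is scarce, and Cup2 (also named Ace1) activates CUP1 and CRS5 when copper is abundant. CUP1 lies in a tandem repeat whose copy number is known to differ between yeast strains.

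The start-proximal DNA of the genes is shown first, because the members differ in which motifs of these regulators they hold there. All sequences are of the R64 reference (RefSeq), the release that UCSC names sacCer3, which is the build in the submitters' processing notes. Each is written 5′ to 3′ on the strand of its gene, and positions are counted back from 1 at the base before the annotated coding start. Capitals mark matches on either strand.

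Searched in the 500 bases before the start of 6037 genes, the Mac1 motif in its form TTTGCTCA was in 2.55% of windows and in its form TTTGCGCA in 0.878%. CTR1 and FRE1 each held 2 matches of the first form, and FRE7 held 3 of the second, of which 2 overlap because they read into each other on opposite strands. The stretches shown start at bases 360, 320 and 360 before the start.
CTR1 (chrXVI:785848-785947, plus strand): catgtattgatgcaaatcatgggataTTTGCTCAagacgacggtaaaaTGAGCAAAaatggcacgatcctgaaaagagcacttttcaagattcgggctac
FRE1 (chrXII:568247-568346, plus strand): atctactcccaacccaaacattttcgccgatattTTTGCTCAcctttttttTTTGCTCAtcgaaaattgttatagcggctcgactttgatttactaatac
FRE7 (chrXV:40388-40597, plus strand): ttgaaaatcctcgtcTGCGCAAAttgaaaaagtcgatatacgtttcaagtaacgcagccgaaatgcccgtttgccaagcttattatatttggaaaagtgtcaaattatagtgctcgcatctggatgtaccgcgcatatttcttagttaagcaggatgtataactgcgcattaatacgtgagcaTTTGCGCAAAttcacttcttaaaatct

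The Aft1 motif TGCACCC was in 2.32% of the same windows, and its core GCACCC, which it contains, in 7.60%. FRE2 and FRE3 each held 1 match of the longer form, at bases 430 and 427 before the start. FRE5 held 2 matches of the longer form and 1 further match of the core.
FRE2 (chrXI:11627-11686, minus strand): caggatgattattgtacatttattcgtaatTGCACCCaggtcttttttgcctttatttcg
FRE3 (chrXV:1055085-1055144, plus strand): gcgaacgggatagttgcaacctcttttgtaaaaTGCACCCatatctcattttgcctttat
FRE5 (chrXV:1061214-1061363, plus strand): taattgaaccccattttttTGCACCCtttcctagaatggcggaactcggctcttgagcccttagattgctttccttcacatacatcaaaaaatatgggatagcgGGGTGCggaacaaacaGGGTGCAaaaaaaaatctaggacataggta

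The Cup2 consensus is looser and was in 30.3% of windows. Each CUP1 copy held 5 matches, CRS5 held 1, and FRE3 held 1 that lies outside the stretch shown above.
CUP1-1 (chrVIII:212881-213050, minus strand): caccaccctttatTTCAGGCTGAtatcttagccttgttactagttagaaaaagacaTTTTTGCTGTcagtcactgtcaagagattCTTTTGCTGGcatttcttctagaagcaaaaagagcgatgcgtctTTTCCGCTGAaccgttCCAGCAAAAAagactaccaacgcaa
CRS5 (chrXV:389013-389072, plus strand): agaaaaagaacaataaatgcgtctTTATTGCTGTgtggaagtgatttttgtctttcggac

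CTR3 held none of these motifs in this window. In the reference, the coding region of YLR410W-B ends 456 bases upstream of CTR3. A match is a run of letters and not a measured site, and binding was not measured in this series.

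**Figure D1:**
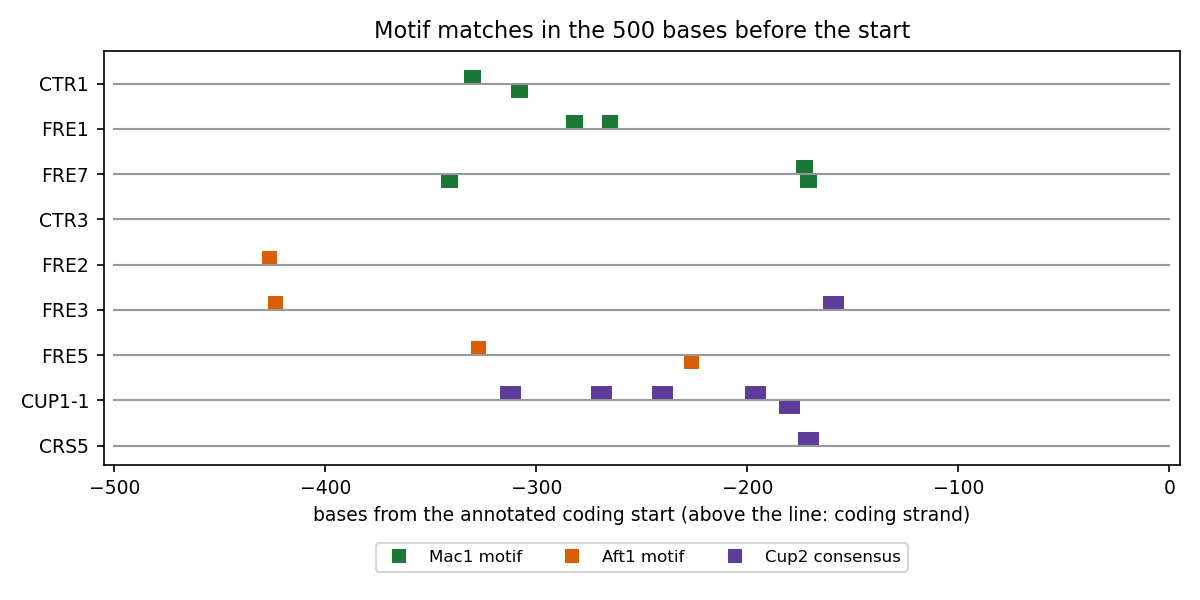
Matches of the Mac1 (TTTGCTCA or TTTGCGCA), Aft1 (TGCACCC) and Cup2 motifs in the 500 bases before the annotated coding start of each gene; the x axis is distance from the start in bases, and boxes above or below a line are on the coding or the other strand. CTR1, FRE1 and FRE7 hold Mac1 matches, FRE2, FRE3 and FRE5 hold Aft1 matches, and CUP1-1 holds 5 Cup2 matches.

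The comparison asks how these genes differ between the nhp6ab strain and the wild type. FRE1, FRE7, CTR1 and FRE2 were lower in nhp6ab and FRE5 and CUP1 were higher, with a threshold of 0.05 on the adjusted p of edgeR's quasi-likelihood test. FRE3, CTR3 and CRS5 were not called. Each library pools a whole culture, so fewer cells with a transcript and less RNA per cell cannot be told apart. In all, 2 units were higher and 4 lower out of 9, where 24.5% of the 6421 genes tested were called higher and 25.0% lower, 49.5% in all. The share called higher was thus near that of all genes, and the share called lower was larger. With 9 units such shares are coarse, and the difference was not tested. The median log2 fold change was -0.31 over the 9 units and 0.01 over all genes tested. Of the members 66.7% had a log2 fold change of at least 0.5 in size, against 19.3% of all genes tested. The members were chosen with earlier results of these data known, so these contrasts cannot be read as a property of metal genes. In 7 of the 9 units the nhp6ab libraries did not overlap the wild-type libraries (77.8%), as in 77.5% of all genes tested.

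**Figure D2:**
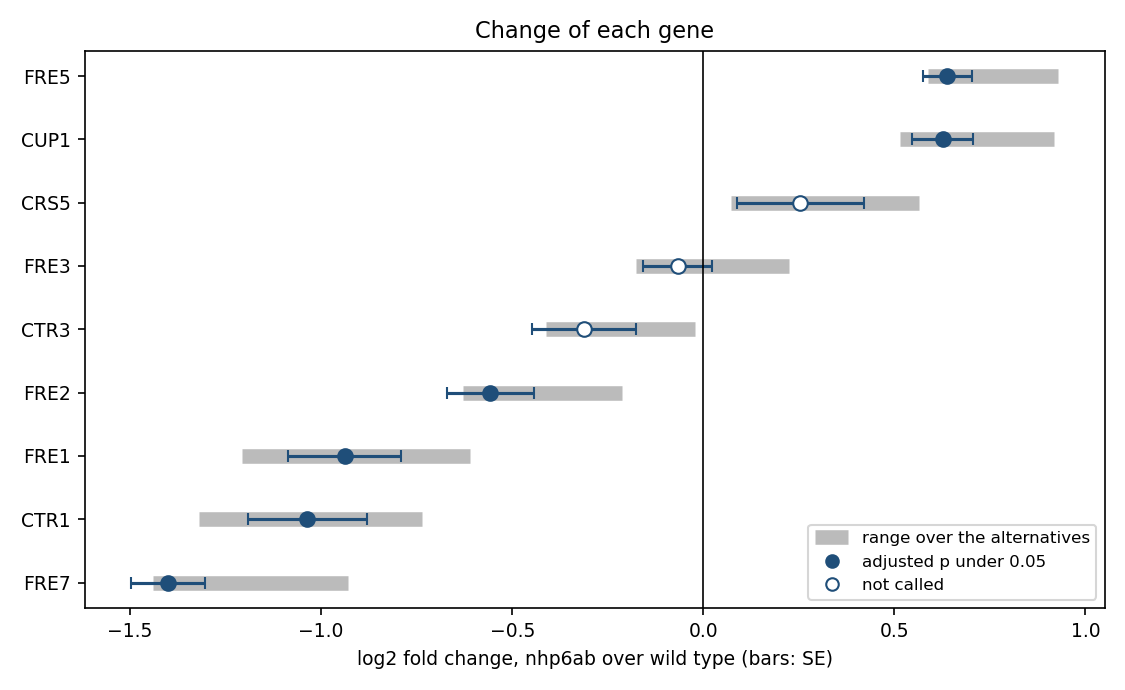
Log2 fold change of each unit in nhp6ab over wild type (x axis; points with SE bars, filled where the adjusted p is under 0.05), with the range over all alternative settings as a grey band. FRE7 at -1.40, CTR1 at -1.04 and FRE1 at -0.94 lie lowest and FRE5 at 0.64 and CUP1 at 0.63 highest; the band of FRE3 alone crosses 0.

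Levels of different genes can be set side by side only per length, for which the deposited TPM values (scaled by transcript length and library total) serve. In the wild type CUP1 had a level of 1008 ± 9.34 TPM (SD, n = 2), at the 97.1 percentile of all rows. The next level was far lower: CTR1 had 33.1 ± 3.83 TPM and CRS5 30.1 ± 5.13 TPM, and these neighbours overlapped between libraries. FRE1 followed with 14.3 ± 1.42 TPM, FRE5 with 11.7 ± 0.29 TPM and CTR3 with 9.53 ± 1.0 TPM. FRE3 with 7.86 ± 1.06 TPM and FRE7 with 7.78 ± 0.29 TPM could not be ordered, and FRE2 was lowest with 4.52 ± 0.12 TPM. All reductase genes and CTR3 thus lay below the median of all rows, which was 26.6 and 27.7 TPM in the wild-type libraries. CUP1 and CRS5 have coding regions of 186 and 210 bases, and a length-scaled level of so short a transcript depends strongly on the length the authors' software assumed.

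In nhp6ab the order differed. CUP1 stayed first with 1905 ± 151 TPM and CRS5 came next with 44.4 ± 3.28 TPM. FRE5 had 22.4 ± 0.84 TPM and CTR1 19.7 ± 5.34 TPM, with overlapping libraries. CTR3 with 9.39 ± 1.10 TPM, FRE3 with 9.17 ± 0.11 TPM and FRE1 with 9.10 ± 2.35 TPM could not be told apart. FRE2 with 3.77 ± 0.33 TPM and FRE7 with 3.61 ± 0.20 TPM were lowest, again with overlap.

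**Figure D3:**
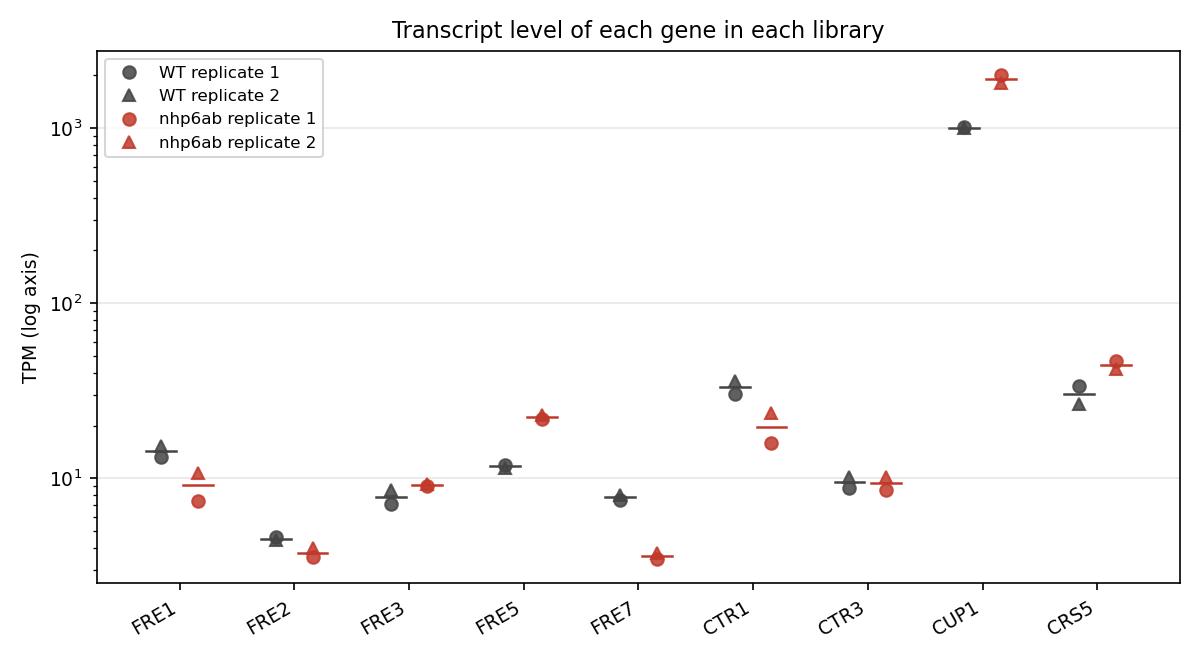
Level of each unit in each library in TPM (log axis); circles are replicate 1, triangles replicate 2, and short lines the mean of each strain. FRE7, CTR1, FRE1 and FRE2 are lower in both nhp6ab libraries than in both wild-type libraries, and FRE5, CUP1, CRS5 and FRE3 are higher. The CTR3 values of the strains overlap on this scale, on which the median of all rows is also higher in nhp6ab.

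FRE1, the main surface reductase for iron(III) and copper(II), fell in nhp6ab. FRE1 (YLR214W; chromosome XII, 568567 to 570627, plus strand) had 37.0 and 41.0 CPM (counts scaled to library size with TMM factors) in the WT libraries against 16.9 and 23.7 CPM in the nhp6ab libraries. Both nhp6ab libraries lay below both wild-type libraries, and nhp6ab replicate 1 was the lower of its strain. The log2 fold change was -0.94 ± 0.15 (SE), or 52.2% of the wild-type level, with adjusted p = 0.00212.

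FRE7, a putative reductase gene known to be induced when copper is scarce, had the largest called change of the 9 units. FRE7 (YOL152W; chromosome XV, 40748 to 42610, plus strand) had 19.1 and 19.4 CPM in the WT libraries against 7.08 and 7.47 CPM in the nhp6ab libraries. The replicates lay close together in each strain and the strains did not overlap. FRE7 fell by 1.40 ± 0.10 (SE) on the log2 scale to 37.9% of its wild-type level, with adjusted p = 7.02e-05, and 90 of the 6421 genes tested had a log2 fold change as low or lower.

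CTR1, the high-affinity copper transporter of the plasma membrane, fell by about as much as FRE1. CTR1 (YPR124W; chromosome XVI, 786208 to 787428, plus strand) had 49.6 and 56.2 CPM in the WT libraries against 21.2 and 30.3 CPM in the nhp6ab libraries. As with FRE1, nhp6ab replicate 1 was lower than replicate 2, and no nhp6ab library reached the wild-type range. The log2 fold change was -1.04 ± 0.15 (SE), or 48.8% of the wild-type level, with adjusted p = 0.00175. Without nhp6ab replicate 1 the log2 fold change was -0.81, and without nhp6ab replicate 2 it was -1.32, both still called.

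The ratio of FRE1 to CTR1 hardly varied over the 4 libraries, although each gene differed between the nhp6ab replicates. In TPM it was 0.436 and 0.426 in the WT libraries against 0.466 and 0.458 in the nhp6ab libraries. The ratio of FRE7 to CTR1 varied more, with 0.249 and 0.223 in the WT libraries against 0.217 and 0.16 in the nhp6ab libraries. A ratio within a library does not depend on the scaling between libraries, and no test was made of these ratios.

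CTR3, the other plasma membrane copper transporter gene, was not called. CTR3 (YLR411W; chromosome XII, 947253 to 947978, plus strand) had 8.40 and 9.37 CPM in the WT libraries against 6.66 and 7.63 CPM in the nhp6ab libraries. The strains did not overlap, but the nearest values were less than 1 CPM apart. The log2 fold change was -0.31 ± 0.14 (SE) with adjusted p = 0.0972. The TPM ratio of CTR1 to CTR3 was 3.44 and 3.49 in the WT libraries against 1.85 and 2.31 in the nhp6ab libraries, so the balance between the transporter genes was lower in both nhp6ab libraries.

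The 3 reductase genes with Aft1 matches, which as background serve iron uptake, did not move together. FRE5, a putative reductase gene, rose. FRE5 (YOR384W; chromosome XV, 1061564 to 1063648, plus strand) had 33.7 and 31.3 CPM in the WT libraries against 50.02 and 51.3 CPM in the nhp6ab libraries. The strains were well apart, and the log2 fold change was 0.64 ± 0.06 (SE), or 1.56-fold, with adjusted p = 0.000308.

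FRE2, a surface reductase for iron(III) and copper(II), was lower. FRE2 (YKL220C; chromosome XI, 9091 to 11226, minus strand) had 13.3 and 12.3 CPM in the WT libraries against 8.32 and 9.15 CPM in the nhp6ab libraries, without overlap. The log2 fold change was -0.56 ± 0.11 (SE), with adjusted p = 0.00636. The call was lost on the log2(TPM + 1) scale (-0.21, adjusted p = 0.183) and without WT replicate 1 (-0.50, adjusted p = 0.0652).

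FRE3, which reduces iron bound to siderophores, was not called. FRE3 (YOR381W; chromosome XV, 1055545 to 1057680, plus strand) had 20.6 and 24.0 CPM in the WT libraries against 21.3 and 21.1 CPM in the nhp6ab libraries. The nhp6ab values lay inside the wild-type range, and the log2 fold change was -0.07 ± 0.09 (SE) with adjusted p = 0.565. FRE2 and FRE3 are the closest relatives among the reductase genes, with 77.5% identity over 2114 aligned bases, and no member other than the CUP1 copies aligned more closely with another gene.

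Because FRE5 rose while FRE1 and FRE7 fell, the make-up of the reductase transcripts differed more than their sum in TPM. The summed level of the 5 genes was 44.5 and 47.8 TPM in the WT libraries against 45.4 and 50.8 TPM in the nhp6ab libraries, with overlap. The median of all rows was itself 26.6 and 27.7 TPM in the WT libraries against 32.3 and 34.1 TPM in the nhp6ab libraries. Whether the sum differs between the strains thus depends on the scaling, unlike the shares within a library. FRE5 made up 26.8 and 24.1% of that sum in the WT libraries against 48.1 and 45.3% in the nhp6ab libraries. FRE1 made up 29.8 and 31.9% in the WT libraries against 16.4 and 21.2% in the nhp6ab libraries, and FRE7 made up 17.02 and 16.7% against 7.64 and 7.39%. The ratio of FRE5 to FRE1 was 0.900 and 0.755 in the WT libraries against 2.93 and 2.14 in the nhp6ab libraries.

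FRE5 shares its upstream DNA with FIT3, which encodes a cell wall mannoprotein that helps to hold siderophore iron. The genes point away from each other with 508 bases between their coding regions. FIT3 (YOR383C; chromosome XV, 1060441 to 1061055) had 196 and 199 CPM in the WT libraries against 73.7 and 66.7 CPM in the nhp6ab libraries, a log2 fold change of -1.49 ± 0.06 (SE) with adjusted p = 1.17e-05. Across the same intergenic stretch, FRE5 was therefore higher and FIT3 lower in nhp6ab. YOR385W, downstream of FRE5, was lower as well (-1.59 ± 0.13 SE, adjusted p = 0.000132). CRR1, which points away from FRE1 with 644 bases between, was lower as FRE1 was (-0.69 ± 0.13, adjusted p = 0.00489). COS9, which points away from FRE2, was not called (adjusted p = 0.967). All these neighbours were taken for their position after values were seen, and FIT3 is 1 case among them.

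CUP1, the main copper metallothionein, rose in nhp6ab. The CUP1 copies (CUP1-1, YHR053C; chromosome VIII, 212535 to 212720; and CUP1-2, YHR055C; chromosome VIII, 214533 to 214718; both minus strand) had equal deposited counts in all 4 libraries, so the tables do not separate them. Summed, they had 209 and 199 CPM in the WT libraries against 336 and 293 CPM in the nhp6ab libraries. The strains did not overlap, and nhp6ab replicate 1, in which CTR1 and FRE1 were lower, held the higher CUP1 value. The log2 fold change was 0.63 ± 0.08 (SE), or 1.54-fold, with adjusted p = 0.000831. The TPM ratio of CUP1 to CTR1 was 33.4 and 28.0 in the WT libraries against 126 and 76.5 in the nhp6ab libraries.

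YHR054C, YHR052W-A and YHR054W-A, at the CUP1 repeat, were higher too, whereas the neighbouring genes CIC1 and RSC30 were not. YHR056W-A, which is not in the reference used and was placed here by its name only, had 1.10 and 0.757 CPM in the WT libraries against 0.747 and 0.413 CPM in the nhp6ab libraries, and it was not called (-0.69 ± 0.39 SE, adjusted p = 0.183). YHR054C, an open reading frame of unknown role between the copies (chromosome VIII, 213185 to 214249), had 24.3 and 17.1 CPM in the WT libraries against 49.6 and 49.8 CPM in the nhp6ab libraries (log2 fold change 1.25 ± 0.14 SE, adjusted p = 0.000474). All 1065 bases of YHR054C are identical to a stretch of RSC30, so how the reads of this pair were divided is uncertain. YHR052W-A and YHR054W-A are not in the reference used here. Their names place them near the copies on the other strand, and whether they overlap the copies could not be checked. Some of their reads may thus come from CUP1, so they are no separate support for its rise. Both rows had equal counts in all 4 libraries. Each had 154 and 152 CPM in the WT libraries against 244 and 187 CPM in the nhp6ab libraries (0.49 ± 0.12, adjusted p = 0.0116). That call was lost without WT replicate 1 or 2 (adjusted p = 0.0997 and 0.104). With these added to CUP1, the log2 fold change of the sum was 0.55.

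Outside the repeat, CIC1 had 118 and 111 CPM in the WT libraries against 83.9 and 95.1 CPM in the nhp6ab libraries (-0.36 ± 0.07, adjusted p = 0.00662). The call of CIC1 was lost with library size alone (adjusted p = 0.172) and on the log2(TPM + 1) scale (-0.07, adjusted p = 0.521). It was also lost without WT replicate 1, where the log2 fold change was -0.32. RSC30, a subunit gene of the RSC remodeller, holds the 1065 bases it shares with YHR054C, so it is not wholly outside the repeat. It had 82.2 and 84.1 CPM in the WT libraries against 82.4 and 77.7 CPM in the nhp6ab libraries. RSC30 was not called (-0.05 ± 0.06, adjusted p = 0.447). With library size alone its sign turned and it gained a call (0.16, adjusted p = 0.0481). In the reference the noncoding RNA genes RUF5-1 and RUF5-2 run across the copies on the other strand, and YHR052C-B and YHR054C-B overlap the copies on the same strand. The strand setting of the counting is not known here, and overlapping genes may therefore share reads. The number of CUP1 repeats in either strain is likewise not given in the sources used here. More copies and more RNA per copy cannot be told apart. These genes were taken for their position after values were seen.

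**Figure D4:**
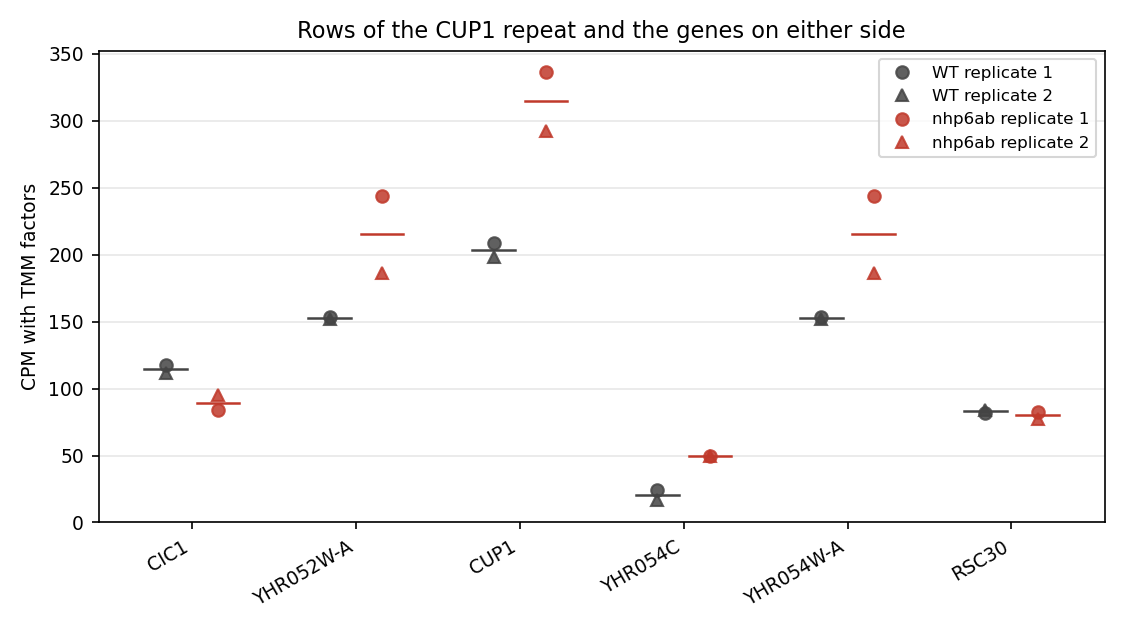
CPM of CUP1, YHR054C, YHR052W-A and YHR054W-A at the CUP1 repeat and of the neighbouring genes CIC1 and RSC30, in each library (circles are replicate 1, triangles replicate 2, lines the mean of each strain; linear axis from 0). RSC30 shares part of its sequence with YHR054C. CUP1, YHR054C, YHR052W-A and YHR054W-A are higher in both nhp6ab libraries than in both wild-type libraries, and CIC1 and RSC30 are not.

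CRS5, the second metallothionein gene, was not called. CRS5 (YOR031W; chromosome XV, 389213 to 389422, plus strand), which the reference lists as a pseudogene, had 8.08 and 6.10 CPM in the WT libraries against 9.06 and 7.95 CPM in the nhp6ab libraries. The strains overlapped on this scale, and the log2 fold change was 0.25 ± 0.17 (SE) with adjusted p = 0.241. With library size alone CRS5 was called higher (0.47, adjusted p = 0.0423), as on the log2(TPM + 1) scale (0.55, adjusted p = 0.00692), where the median of all genes was itself at 0.28. The TPM ratio of CUP1 to CRS5 was 30.03 and 37.8 in the WT libraries against 43.1 and 42.8 in the nhp6ab libraries.

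The genes for the known regulators were not called. MAC1 had 35.0 ± 2.74 CPM in the WT libraries against 37.2 ± 2.88 CPM in the nhp6ab libraries (SD, n = 2 each; log2 fold change 0.09, adjusted p = 0.398). CUP2 had 46.3 ± 1.83 and 41.7 ± 2.46 CPM (-0.15, adjusted p = 0.108). AFT1 had 39.8 ± 2.03 and 45.4 ± 2.29 CPM (0.19, adjusted p = 0.0565), and AFT2 had 47.9 ± 1.80 and 53.9 ± 3.47 CPM (0.17, adjusted p = 0.0705). With library size alone MAC1 (0.30, adjusted p = 0.0274), AFT1 (0.40, adjusted p = 0.00183) and AFT2 (0.38, adjusted p = 0.00209) were called higher. Leaving out nhp6ab replicate 1 gave CUP2 a call (-0.22, adjusted p = 0.0493), and leaving out nhp6ab replicate 2 gave AFT2 one (0.24, adjusted p = 0.0342). An RNA level does not measure the activity of these proteins. They were named for their role, outside the rule for named genes. In the list of 10 metal regulators 1 gene was higher, 1 lower and 8 not called, with a median log2 fold change of 0.04. Of all genes tested 24.5% were higher and 25.0% lower. HAA1, a regulator of the response to weak acids related in sequence to Cup2, rose (0.51 ± 0.06 SE, adjusted p = 0.000600), and TIS11, which promotes decay of iron-related mRNAs, fell (-0.89 ± 0.14, adjusted p = 0.00229).

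The genes that move copper inside the cell went both ways. Of 15 copper delivery and copper enzyme genes 6 were higher, 3 lower and 6 not called, with a median log2 fold change of 0.17. Calls both ways were common, since 24.5% of the 6421 genes tested were higher and 25.0% lower. The difference from those shares was not tested. CCC2, the ATPase that loads copper into the secretory pathway, rose from 23.7 ± 1.17 to 49.3 ± 0.69 CPM (SD, n = 2 each; 1.05 ± 0.06 SE, adjusted p = 4.33e-05). COX19 (0.75 ± 0.08) and SCO1 (0.52 ± 0.06), which serve copper delivery to cytochrome oxidase, rose as well. SOD1, the copper and zinc superoxide dismutase, fell from 1123 ± 2.76 to 849 ± 10.8 CPM (-0.40 ± 0.05, adjusted p = 0.000988), a call lost on the log2(TPM + 1) scale (adjusted p = 0.0985).

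Of the 4 other FRE-family genes, FRE4 was lower (-0.38 ± 0.06 SE, adjusted p = 0.00288) and FRE8 higher (0.29 ± 0.09, adjusted p = 0.0308), and FRE6 and AIM14 were not called (median 0.10). FRE4 lost its call with library size alone (adjusted p = 0.0882) and on the log2(TPM + 1) scale (-0.08, adjusted p = 0.443). FRE8 lost its call in DESeq2 (adjusted p = 0.0647). Its log2 fold change was 0.18 without WT replicate 2 and 0.28 without nhp6ab replicate 1, and the call was lost in both. Of 15 other metal transport genes 4 were higher, 4 lower and 7 not called (median -0.03). SMF2, a manganese transporter gene (0.76 ± 0.06), and CCC1, for vacuolar iron storage (0.55 ± 0.07), rose. ZRT1, the high-affinity zinc transporter gene (-0.47 ± 0.07), and YCF1, for vacuolar transport of glutathione conjugates (-0.47 ± 0.06), fell, and both lost their calls on the log2(TPM + 1) scale (adjusted p = 0.101 and 0.0785). Of the 6421 genes tested 24.5% were called higher and 25.0% lower. Over all 44 genes of the 4 lists 12 were higher and 9 lower, near those shares. Without WT replicate 2 these counts were 6 and 5, and with library size alone they were 26 and 4.

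Over the 4 libraries, the genes whose centred log2 CPM lay nearest to that of FRE7 were PPN2, a polyphosphatase gene, MTC7 and RPS22A, a ribosomal protein gene, at Euclidean distances of 0.0718, 0.0796 and 0.0807. Their log2 fold changes were -1.38, -1.41 and -1.34. With 4 libraries in 2 strains this likeness is little more than a fold change of like size.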

How the data were processed

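Polyadenylated RNA of 2 wild-type and 2 nhp6ab libraries was made into Illumina libraries (labels' protocols). Deposited by the authors were RSEM expected counts per gene and RSEM TPM values (scaled for length and library total), per the sheet names. Per the submitters' processing notes the build was sacCer3. For the aligner, annotation, versions and strand setting, a statement is not given in the sources used here. RSEM shares ambiguous reads among genes by estimate. Of 6688 identifiers, 6005 matched RefSeq R64; 4 lines without an identifier were left out.

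The expected counts were rounded, CUP1-1 and CUP1-2 summed, and 6421 genes passing edgeR's filter (minimum count 10, minimum total 15) were tested with edgeR 4.0.16 in R 4.3.3 (TMM factors of 0.924 to 1.10, quasi-likelihood F test on strain alone, leaving 2 residual degrees of freedom, Benjamini-Hochberg adjustment over all genes, threshold 0.05). SE is the log2 fold change's size over the square root of F. Alternatives used DESeq2 1.42.0, limma 3.58.1, other scalings and filters, a replicate block, and each library left out. The code of the test was also run on counts simulated from its own fitted means and dispersions, which checks the code and not these data. Motif search and BLAST+ 2.17.0 used R64. Figures used matplotlib 3.10.9.

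Members, lists and motifs were chosen with earlier results of these data known. Named genes were every member, NHP6A and NHP6B, up to 4 called genes of each list by smallest p, and the 3 genes nearest to the called member with the largest change; others are said to be added. The values rest on no spike-in, so each change is relative to the other transcripts.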

Additional observations from a re-analysis of the deposited data

How the results depend on the processing

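Under 16 alternatives FRE1, FRE5, FRE7, CTR1 and CUP1 kept their direction and their call, with log2 fold changes of -1.21 to -0.61, 0.59 to 0.93, -1.44 to -0.93, -1.32 to -0.74 and 0.51 to 0.92. CUP1 also did so with YHR052W-A and YHR054W-A added, an alternative chosen after seeing the data. Scaling by library size alone put the median of all genes at 0.22, with 79.1% of called genes higher in place of 49.5%. On log2(TPM + 1) these values were 0.28 and 85.2%. The sign of FRE3 turned with library size alone (0.14), on log2(TPM + 1) and log2(TPM + 0.1) (0.20 and 0.225) and without WT replicate 2 (0.0437; range with each library left out -0.176 to 0.0437). Under the first 3 of these CUP2 turned to 0.0606, 0.14 and 0.14 and RSC30 to 0.16, 0.23 and 0.24. Of the 44 list genes 12 were higher and 9 lower, near the 24.5% and 25.0% of all genes tested. These counts were 26 and 4 with library size alone, and 30 and 1 with either TPM pseudocount. With each library left out in turn, 6 to 13 were higher and 5 to 10 lower, both lowest without WT replicate 2, while 2 members were higher each time and 3 or 4 lower. The replicate numbers share only a number: across genes, deviations of same-numbered libraries correlated at -0.0648. With the replicate block, 2 members were called higher and 4 lower, and 13 and 10 list genes; of the genes named, AFT1 gained a call (adjusted p = 0.0302). CRS5 and CTR3 did not pass the filter of 10 CPM and have no value there. Where a call changed, the cause was not tested. CTR3 and CRS5 had 198 to 240 and 129 to 279 expected counts per library.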
